A study of Mus musculus with 24 samples.

Results

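The enzymes that cut, protect and crosslink the extracellular matrix were followed in inguinal white adipose tissue (iWAT), the subcutaneous fat depot of the mouse groin. They were chosen by name: the matrix metalloproteinases (Mmp), their tissue inhibitors (Timp), the ADAMTS proteases and ADAMTS-like proteins (Adamts, Adamtsl), the lysyl oxidases (Lox, Loxl) and the lysyl hydroxylases (Plod). Of 35727 genes in the deposited counts, 59 bore such a name, and 49 of them had at least 10 counts in 4 or more libraries: 14 Mmp, 4 Timp, 18 Adamts, 5 Adamtsl, 5 lysyl oxidase and 3 Plod genes. The 10 others were Mmp1a, Mmp1b, Mmp7, Mmp8, Mmp10, Mmp16, Mmp20, Mmp21, Mmp24 and Adamts19. All 49 also passed the count filter that left 15259 genes for testing.

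The mice were males of 18 to 22 weeks, either wild type (WT) or with LPCAT3 deleted (KO, called AdL3KO in the series). LPCAT3 is an acyltransferase that puts fatty acids into membrane phospholipids. Both genotypes ate high-fat diets with 60% of calories from fat, rich in saturated (SFA), omega-6 (n6) or omega-3 (n3) fat. The 6 groups, WT and KO on each of the 3 diets, had 4 bulk RNA-seq libraries each, 24 in all. The promoter or Cre line behind the deletion and the composition of the diets were not given in the sources used here, and no group on a low-fat diet was analysed here. The series title speaks of mature adipocytes, whereas the labels name whole iWAT and describe no cell isolation.

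As background, matrix metalloproteinases and ADAMTS enzymes are zinc proteases that are secreted or held at the cell surface. They cleave collagens, proteoglycans and basement membrane, and TIMP proteins block the matrix metalloproteinases by filling the active site. Lysyl hydroxylases modify collagen inside the cell, and lysyl oxidases then oxidise lysines outside it so that collagen and elastin fibres become covalently joined. In fat, this system opens and rebuilds the fibrous cage around adipocytes as they enlarge.

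Libraries held 43.6 to 62.1 M estimated counts (median 50.2 M). Lpcat3, the deleted gene, was lower in KO on each diet in counts, with a log2 fold change of -0.63 on SFA, -0.51 on n6 and -0.97 on n3, whereas in TPM (transcript abundance per length, scaled to an equal sum per library) it stood at 0.07, 0.10 and -0.35. Its transcript remained at 47.7 to 81.0 CPM (counts scaled by library size) in KO, and the groups are named by their labels. Across diets the genotypes were not separate: WT on n6 had 66.0 to 72.9 CPM and KO on SFA 70.8 to 81.0 CPM. In WT, Lpcat3 was lower on n6 than on SFA by 0.75 log2 (edgeR adjusted p = 1.25e-08). Adipocyte markers were abundant in every group, at a summed 22300 CPM or more. Macrophage markers were lower in KO: 7, 7 and 6 of 8 fell on SFA, n6 and n3, and their summed level ranged from 948 to 1090 CPM in WT against 550 to 752 in KO on SFA. Stromal progenitor markers fell for 7 of 8 genes on SFA, 5 on n6 and 1 on n3, with summed levels of 1440 to 1500 CPM in WT and 1010 to 1260 in KO on SFA. In bulk tissue, fewer cells of a type and less RNA per cell cannot be told apart, and the part of these markers in the results below was not tested. In 4 libraries B cell or muscle markers were high (WT SFA 3, KO SFA 2, KO n6 1 and KO n6 2, called marker-high below), and results were also computed without them. The library KO SFA 3 was the lowest of its group for 26 of the 49 genes.

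Levels per transcript length are given in TPM. Timp3 and Timp2, both TIMP inhibitors, were the most abundant members, with means of 230 and 177 TPM over the 24 libraries. Next came Lox at 141 TPM, Plod3 at 107 TPM, the gelatinase Mmp2 at 97.7 TPM and Plod1 at 81.4 TPM. Adamts5 led the ADAMTS proteases at 69.3 TPM. The least abundant were Adamts8 (0.231 TPM), Adamts18 (0.203 TPM) and Adamts20 (0.137 TPM). Neighbours in this order often overlapped: Mmp14 and Mmp19 had means of 57.1 and 57.0 TPM, over ranges of 32.8 to 72.3 and 49.4 to 72.1 TPM.

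**Figure D1:**
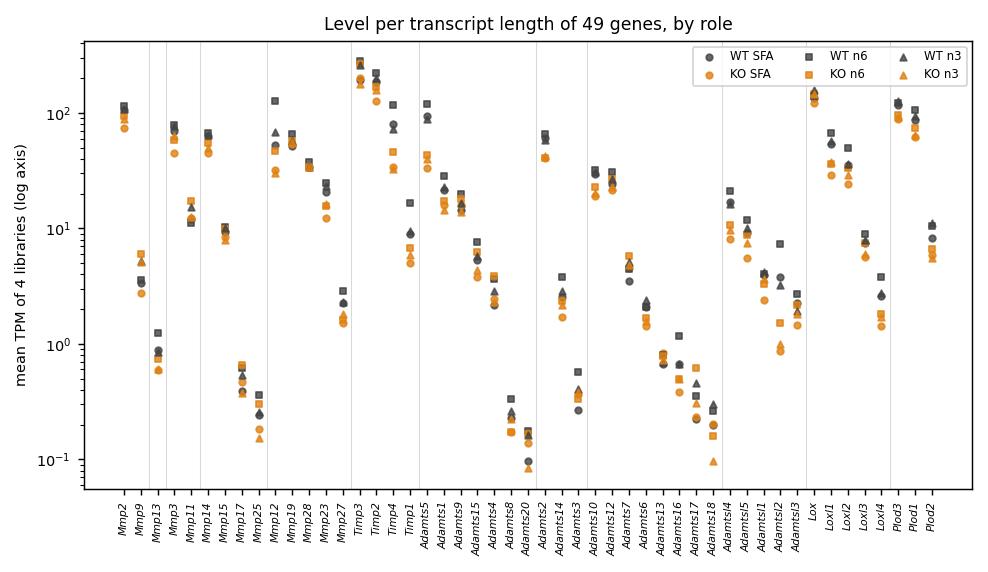
Mean TPM of each of the 49 genes in the 6 groups (log axis), with genes ordered by role and grey for WT, orange for KO. Each point is the mean of 4 libraries; Timp3, Timp2 and Lox stand at the top and Adamts20 at the bottom.

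The summed TPM of each family was lower in KO on every diet. The 18 Adamts genes summed to 261 ± 12 TPM in WT and 162 ± 17 TPM in KO on SFA. They came to 320 ± 12 TPM in WT and 191 ± 8.1 TPM in KO with n6 and to 265 ± 10 and 171 ± 18 TPM with n3 (mean ± SD of 4 libraries here and below). Adamts5 made up 35.6%, 37.1% and 33% of that sum in WT, and 20.5%, 22.6% and 23.4% in KO. The 5 Adamtsl genes summed to 36.1 ± 2.6 TPM in WT and 18.4 ± 1.7 TPM in KO on SFA. The deposited TPM are scaled so that the median gene itself lay below 0 in these comparisons, by -0.125, -0.16 and -0.187 log2 on SFA, n6 and n3. Differences are therefore tested below on counts with TMM scaling, with the median gene at 0, 0 and -0.03.

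KO tissue had less transcript of many of these enzymes on every diet. The members were chosen with earlier results of these data known, so the shares of all genes beside them are no independent test. On SFA, 27 of 49 members fell and 5 rose, where 19.9% of all tested genes fell and 20% rose, and the members' median log2 fold change was -0.32. On n6, 21 fell and 4 rose (22.1% and 21% of all genes), with a median of -0.23. On n3, 19 fell and 2 rose (18.7% and 20.1% of all genes), with a median of -0.23. WT and KO libraries did not overlap, with KO lower, for 24 members on SFA, 22 on n6 and 18 on n3, against 18.1%, 19.7% and 15.6% of all genes. KO was higher without overlap for 4, 3 and 2 members, against 18.0%, 19.4% and 17.2%. A gene counts as risen or fallen where the edgeR adjusted p is under 0.05, and the p-values measure only the spread between these libraries, since the labels do not say that each came from a separate animal.

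The split between rises and falls depended on the scaling. In TPM, 0 members were higher and 28 lower on SFA, 3 higher and 29 lower with n6, and 0 higher and 29 lower with n3. In those fits 6.95% of all genes were higher and 35.6% lower on SFA, 7.75% and 44.9% with n6, and 5.99% and 49.3% with n3, so the excess of falls there is also that of genes in general. With the median gene of each library set to 0 in TPM they were 10 and 24, 7 and 19, and 5 and 15. The shares of all genes in the centred fits were 20.2% higher and 15.3% lower on SFA, 23% and 18.5% with n6, and 23.3% and 11.7% with n3. In these centred fits no member that rose in counts lost its call on any diet. The falls that were lost were Adamts6, Loxl3 and Mmp27 on SFA and Adamts3 and Adamtsl5 on n6. On n3 they were Adamts6, Adamts18, Adamtsl3 and Adamtsl5.

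The same 15 members fell on all 3 diets, as did 10% of all tested genes, and 0 members rose on all 3, against 11.4% of all genes. By unadjusted p under 0.05 in edgeR 16 members were lower and 0 higher on all 3. DESeq2 and limma on TPM also gave 0 higher. The shares of all genes for these further counts are not given. The 3 genotype comparisons share no libraries. These 15 were Adamts1, Adamts2, Adamts5, Adamts10, Adamtsl2, Adamtsl4, Adamtsl5, Mmp12, Mmp23, Timp4, Loxl1, Loxl4, Plod1, Plod2 and Plod3. A further 5 fell on 2 diets and 12 on 1 diet only, so that 32 members fell on at least 1 diet. On at least 1 diet 9 rose: Adamts7, Adamts9, Lox, Mmp9, Mmp11, Mmp17, Mmp19, Mmp28 and Timp3. Timp3 is in both counts, as it rose on SFA and fell on n3. Another 9 members passed the test on no diet. For these patterns the shares of all genes are not given. Without the 4 marker-high libraries, 13 of the 15 fell on all 3 diets, with Mmp12 missing the threshold on SFA and Adamtsl5 on n6. In TPM centred on the median gene 14 of the 15 did, all but Adamtsl5.

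**Figure D2:**
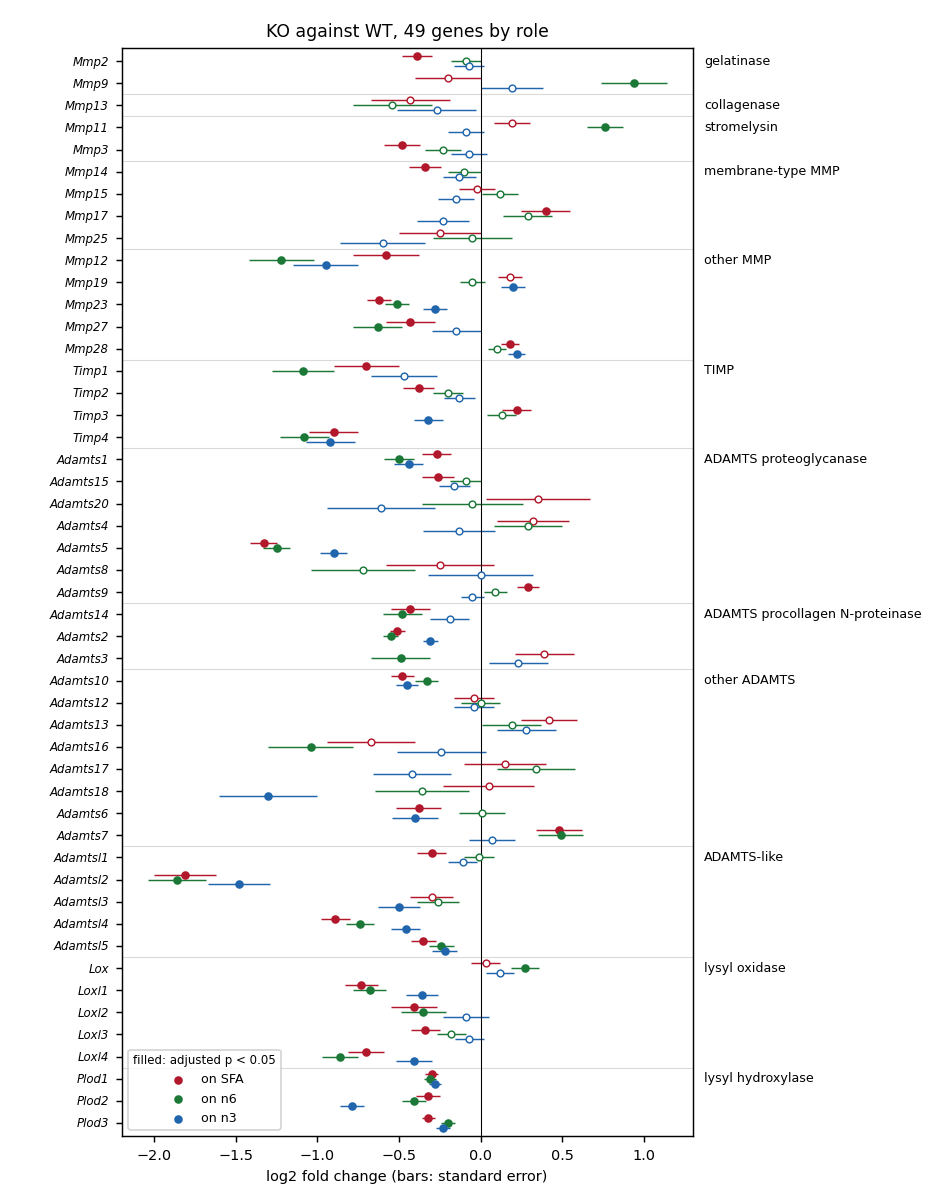
Log2 fold change of KO against WT for 49 genes (rows, by role) on SFA (red), n6 (green) and n3 (blue), with standard errors; filled points passed the adjusted p threshold of 0.05. Most filled points lie left of 0, with Adamtsl2 and Adamts5 farthest on SFA and n6.

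Adamts5, the aggrecanase that also cuts versican, had the smallest p of all members on each diet. On SFA the WT libraries had 592, 609, 583 and 603 CPM and the KO libraries 264, 249, 195 and 241 CPM. The n6 diet gave 647, 684, 675 and 702 CPM in WT, against 317, 279, 256 and 285 in KO. With n3, the values were 563, 571, 529 and 509 CPM in WT and 319, 244, 318 and 280 in KO. Every KO library lay below every WT library of the study. The log2 fold change was -1.33 on SFA (adjusted p = 2.25e-11, SE 0.084), -1.25 on n6 (adjusted p = 5.03e-11, SE 0.083) and -0.90 on n3 (adjusted p = 1.98e-08, SE 0.083).

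Adamts5 lies on the minus strand of chromosome 16 at 85856173 to 85901828 (GRCm38, GENCODE M21), and Adamts1, a versican-cleaving protease, lies beside it at 85793827 to 85803113 on the same strand. Adamts1 fell by 0.27 log2 on SFA, by 0.50 on n6 and by 0.44 on n3 (adjusted p = 0.02, 8.8e-05 and 0.000536), with no overlap of WT and KO on any diet. Of the other proteoglycan-cleaving members, Adamts15 fell on SFA (-0.26, adjusted p = 0.0363, groups overlapping). Adamts9 was higher in KO on SFA in counts (0.29, adjusted p = 0.00198), but missed the threshold in TPM (0.12). It passed in TPM centred on the median gene. Adamts4, Adamts8 and Adamts20 did not pass the test on any diet.

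The procollagen N-proteinases trim the amino end of fibrillar procollagens before fibres form. Adamts2, the most abundant of the 3 at 51.4 TPM, had CPM of 251, 229, 240 and 233 in WT against 182, 169, 156 and 163 in KO on SFA. On n6 the WT values were 241, 225, 230 and 240 CPM and the KO values 161, 150, 169 and 157. On n3 they were 221, 233, 223 and 219 in WT and 191, 177, 179 and 175 in KO. The groups were separate on each diet, with the narrowest gap on n3. Adamts2 fell by 0.51 log2 on SFA (adjusted p = 6.67e-09, SE 0.046), by 0.55 on n6 (adjusted p = 1.54e-09, SE 0.046) and by 0.31 on n3 (adjusted p = 1.11e-05, SE 0.046). Adamts14 fell on SFA (-0.43, adjusted p = 0.00632) and n6 (-0.48, adjusted p = 0.00181). Adamts3, at 0.387 TPM, fell on n6 (-0.49, adjusted p = 0.0306). This call was lost without the 4 marker-high libraries and in TPM centred on the median gene.

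Of the remaining ADAMTS proteases, Adamts10, which binds fibrillin microfibrils, fell on all 3 diets. Its CPM on n3 were 53.0, 50.5, 50.4 and 52.3 in WT and 36.1, 36.2, 36.8 and 41.8 in KO, a log2 fold change of -0.45 (adjusted p = 2.03e-05, SE 0.069). On SFA and n6 the log2 fold changes were -0.48 and -0.33, again without overlap. Adamts6 fell on SFA (-0.38) and n3 (-0.40), Adamts16 on n6 (-1.04) and Adamts18 on n3 (-1.30), the last from 0.824 ± 0.0958 to 0.334 ± 0.109 CPM. In TPM centred on the median gene the calls of Adamts6 on both diets and of Adamts18 were lost. Adamts7, which cleaves cartilage oligomeric matrix protein (Comp), rose in KO in counts, by 0.48 on SFA and 0.49 on n6 (adjusted p = 0.00965 and 0.0068). It missed the threshold in TPM (0.29 and 0.31) but passed on both diets in TPM centred on the median gene. Adamts12, Adamts13 and Adamts17 did not pass the test on any diet.

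ADAMTS-like proteins share the ancillary domains of the ADAMTS family but lack the protease domain, and several bind fibrillin microfibrils. Adamtsl2 had the largest fold change among the members on each diet. On SFA it had 8.93, 7.41, 5.60 and 6.62 CPM in WT and 2.26, 2.01, 2.19 and 1.68 CPM in KO. The n6 libraries held 14.2, 12.5, 10.5 and 9.58 CPM in WT and 2.21, 2.86, 4.55 and 3.29 in KO. Those on n3 held 6.38, 5.62, 6.25 and 6.91 CPM in WT and 2.04, 2.28, 1.82 and 2.88 in KO. The highest KO library of any diet, at 4.55 CPM, stayed below the lowest WT library, at 5.60 CPM. The log2 fold change was -1.81 on SFA (adjusted p = 7.53e-08, SE 0.19), -1.86 on n6 (adjusted p = 2.16e-08, SE 0.18) and -1.48 on n3 (adjusted p = 2.05e-06, SE 0.19).

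Adamtsl4, which also binds fibrillin, fell from 35.2 ± 2.2 to 19.1 ± 3.42 CPM on SFA, from 37.3 ± 2.21 to 22.4 ± 1.27 on n6, and from 32.2 ± 1.3 to 23.4 ± 2.03 on n3. These are log2 differences of -0.89, -0.74 and -0.46 (adjusted p = 3.43e-08, 4.08e-07 and 0.000251), and the groups did not overlap on any diet. Adamtsl5 fell by 0.35, 0.24 and 0.22 log2 on SFA, n6 and n3, with overlap on n3. Its calls on n6 and n3 were lost in TPM centred on the median gene. Adamtsl1 fell on SFA (-0.30, adjusted p = 0.0104) and Adamtsl3 on n3 (-0.50, adjusted p = 0.00413). Adamtsl3 did not show this fall in TPM (-0.07). Relative to the median gene, its estimated count per TPM in KO against WT on n3 stood at -0.63 log2. That shift was larger in size than in 99.9% of the genes compared, and its part in the fall was not tested. On SFA the same measure went the other way for Adamtsl1 (0.25) and Adamtsl5 (0.22).

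The 4 TIMP inhibitors differed among themselves. Timp4, the inhibitor known from heart and fat, had 169, 113, 112 and 130 CPM in WT and 73.6, 71.0, 68.9 and 66.6 CPM in KO on SFA. On n6 it had 158, 204, 153 and 176 CPM in WT and 67.1, 69.1, 106 and 84.0 in KO. On n3 it had 121, 134, 112 and 106 CPM in WT and 51.2, 57.0, 66.4 and 75.6 in KO. No KO library reached the lowest WT library of its own diet. Timp4 fell by 0.90, 1.08 and 0.92 log2 in the order SFA, n6, n3 (SE 0.15 each, adjusted p = 5.48e-05, 5.13e-06 and 6.16e-05).

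Timp1, the inducible inhibitor, fell on SFA (3.19 ± 0.538 to 1.96 ± 0.442 CPM, or -0.70 log2, adjusted p = 0.00631) and n6 (5.17 ± 0.932 to 2.42 ± 0.756 CPM, -1.09, adjusted p = 6.81e-05). On n3 its log2 fold change was -0.47 (adjusted p = 0.0605) although the groups did not overlap, and on SFA the call was lost without the 4 marker-high libraries. Timp2, which also helps to activate Mmp2 at the cell surface, fell on SFA (388 ± 16.3 to 298 ± 46.3 CPM, -0.38, adjusted p = 0.00245). Its lowest value, 231 CPM, came from KO SFA 3. Timp3, the inhibitor bound to the matrix, is described with the effects that differed by diet.

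**Figure D3:**
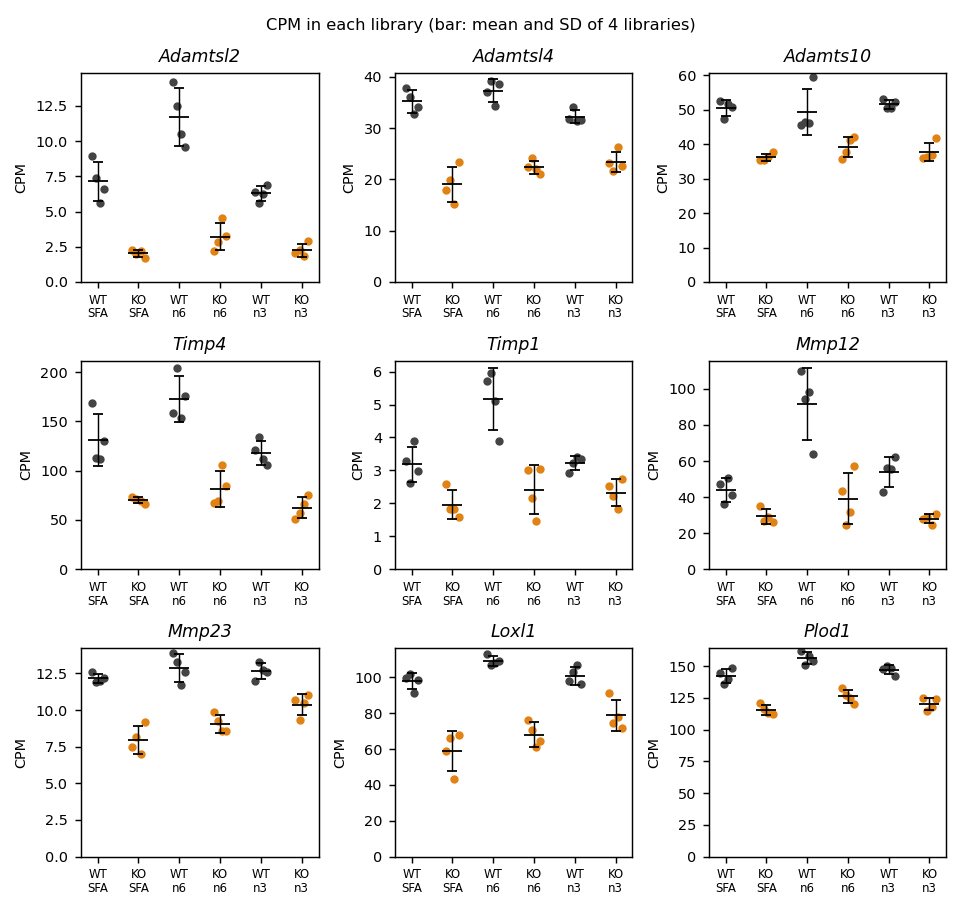
CPM in each library (points; grey WT, orange KO) for 9 genes on the SFA, n6 and n3 diets, with mean and SD of 4 libraries; each axis starts at 0. Adamtsl2, Adamtsl4, Timp4 and Loxl1 show KO below WT without overlap on all 3 diets.

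Among the metalloproteinases, Mmp12, the elastase of macrophages, and Mmp23, a small enzyme that carries its own membrane anchor, fell on all 3 diets. The CPM of Mmp12 were 47.5, 36, 50.8 and 41.4 in WT and 35.2, 27, 29.1 and 26.3 in KO on SFA. On n6 they were 110, 94.4, 98.4 and 63.7 in WT and 43.3, 24.5, 32 and 57.0 in KO. On n3 they were 42.6, 56.0, 55.6 and 62.0 in WT and 27.7, 28.7, 24.7 and 30.9 in KO. KO lay below WT throughout, though on SFA the nearest libraries had 35.2 and 36 CPM. The log2 differences between KO and WT were -0.58 on SFA (adjusted p = 0.0281, SE 0.2), -1.22 on n6 (adjusted p = 4.84e-05, SE 0.2) and -0.95 on n3 (adjusted p = 0.00106, SE 0.2). The call on SFA held in 11 of 18 alternatives. The macrophage marker list, to which Mmp12 does not belong, moved the same way: its summed level was 994 to 1510 CPM in WT and 734 to 1010 CPM in KO on n6, and 941 to 1150 and 707 to 977 CPM on n3.

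Mmp23 fell from 12.2 ± 0.337 to 7.94 ± 0.943 CPM on SFA, from 12.9 ± 0.92 to 9.06 ± 0.615 on n6, and from 12.6 ± 0.54 to 10.4 ± 0.756 on n3. The log2 differences between KO and WT were -0.62, -0.51 and -0.28 (adjusted p = 5.06e-07, 5.97e-06 and 0.00383), with no overlap. Mmp27 fell on SFA (-0.43, adjusted p = 0.0261) and n6 (-0.63, adjusted p = 0.00174), from 2.07 and 2.32 CPM in WT. Its call on SFA was lost in TPM centred on the median gene. Mmp2 (-0.39), the stromelysin Mmp3 (-0.48) and Mmp14 (-0.34), the membrane enzyme that activates pro-Mmp2, fell on SFA. There 7 of 8 stromal progenitor markers also fell. On n6, where 5 of 8 fell, these 3 enzymes were not called (-0.09, -0.23 and -0.10). The part of these markers was not tested. On SFA the WT and KO groups overlapped for Mmp14, and KO SFA 3 was the lowest library for all 3 enzymes, at 109, 38.3 and 52.5 CPM. Without that library all 3 remained called. Mmp19 rose on n3 (0.20, adjusted p = 0.0412) and Mmp28, or epilysin, on SFA (0.18, adjusted p = 0.00956) and n3 (0.22, adjusted p = 0.00225) in counts. In TPM Mmp19 stood at -0.01 and Mmp28 at 0.00 on both diets. Each of these calls was kept in TPM centred on the median gene. Mmp17 rose on SFA in counts (0.40, adjusted p = 0.0424), and missed the threshold in TPM (0.07) but not in TPM centred on the median gene. Mmp13, Mmp15 and Mmp25 did not pass the test on any diet.

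Mmp12, Mmp3, Mmp13 and Mmp27 sit in the Mmp gene cluster of chromosome 9, which runs here from Mmp13 at 7272514 to Mmp7 at 7699585 and also holds Mmp1a, Mmp1b, Mmp7, Mmp8, Mmp10 and Mmp20, all below the count minimum. Mmp12 overlaps Mmp1b on the opposite strand, and Mmp1b had 0 counts in the 24 libraries. The activator protein 1 (AP-1) motif TGANTCA, which is known from promoters of this cluster, was searched on both strands of the RefSeq windows of 300 bases (250 before the start and 50 after). It was present in 3 of 33 member windows (31 members had a window), those of Mmp13, Mmp12 and Mmp3, or 9.09%, against 7.81% of 32851 windows of all genes. The 120 bases before the start of these 3, with the AP-1 letters in capitals, show it at 35, 44 and 46 bases before the start on the plus strand (GRCm38.p6, chr9:7272394-7272513, chr9:7347254-7347373 and chr9:7445702-7445821).
Mmp13: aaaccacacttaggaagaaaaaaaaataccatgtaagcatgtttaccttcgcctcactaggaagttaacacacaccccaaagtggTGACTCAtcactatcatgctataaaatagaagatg
Mmp12: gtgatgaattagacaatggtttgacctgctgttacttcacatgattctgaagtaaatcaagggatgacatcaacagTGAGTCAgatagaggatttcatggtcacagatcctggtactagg
Mmp3: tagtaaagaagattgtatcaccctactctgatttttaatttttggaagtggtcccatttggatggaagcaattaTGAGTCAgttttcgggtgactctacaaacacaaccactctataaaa

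Of these 3 genes, Mmp12 fell on all 3 diets and Mmp3 on SFA, while Mmp13, the rodent collagenase, passed on none of them (log2 -0.43, -0.54 and -0.27, adjusted p = 0.167, 0.0726 and 0.406). The TATA box letters TATAAA, on either strand, were in 6 of 33 member windows (18.2%) and in 13.6% of all windows. Adamtsl2, the member with the largest fold change, has them 30 bases before its start on the plus strand (GRCm38.p6, chr2:27079259-27079378), shown in capitals.
Adamtsl2: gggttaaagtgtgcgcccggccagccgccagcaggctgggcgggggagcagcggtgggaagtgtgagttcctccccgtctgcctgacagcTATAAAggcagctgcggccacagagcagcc

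Each lysyl oxidase other than Lox itself fell on at least 1 diet. Loxl1, the lysyl oxidase of elastic fibres, had 99.8, 102, 91.3 and 98.6 CPM in WT and 58.8, 66.1, 43.2 and 67.6 CPM in KO on SFA. It fell from 109 ± 2.3 to 68.1 ± 6.82 CPM on n6 and from 101 ± 4.79 to 78.8 ± 8.61 CPM on n3, without overlap on any diet. The log2 differences between KO and WT were -0.73, -0.68 and -0.36 (adjusted p = 4.56e-06, 9.26e-06 and 0.00719). Loxl4 fell by 0.70, 0.86 and 0.41 log2 (adjusted p = 2.34e-05, 1.1e-06 and 0.00504), from 5.15 ± 0.47 to 3.17 ± 0.376 CPM on SFA.

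Loxl2, which acts on basement membrane collagen, fell on SFA (-0.41) and n6 (-0.35), close to the threshold on n6 (adjusted p = 0.0495). On SFA, KO SFA 3 had 53.8 CPM against 85.8 to 98.6 CPM in the other KO libraries. Loxl3 fell on SFA (-0.34, adjusted p = 0.00375), a call lost in TPM centred on the median gene. Lox, the most abundant of the family, stood at 0.03 on SFA (adjusted p = 0.806) and 0.12 on n3 (adjusted p = 0.309). On n6 it had 357, 353, 333 and 310 CPM in WT and 412, 330, 432 and 455 CPM in KO, overlapping through KO n6 2. It rose there in counts by 0.27 log2 (adjusted p = 0.0156), and missed the threshold in TPM (0.05) but not in TPM centred on the median gene. With the fall of its relatives, Lox made up 67.2% of the family's summed TPM in KO on SFA against 57.6% in WT.

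The 3 lysyl hydroxylases fell together on every diet, without overlap of WT and KO. Plod1, whose loss causes kyphoscoliotic Ehlers-Danlos syndrome, went from 143 ± 5.55 to 116 ± 4.22 CPM on SFA, from 156 ± 4.62 to 126 ± 5.44 on n6, and from 147 ± 3.43 to 121 ± 4.69 on n3. Its log2 differences were -0.30, -0.31 and -0.28, each with an SE of 0.039 (adjusted p = 1.27e-06, 9.5e-07 and 4.61e-06). Plod3, which also adds sugars to hydroxylysine, fell by 0.32, 0.20 and 0.23 log2 (adjusted p = 1.51e-06, 0.00059 and 0.000115). Plod2, which hydroxylates the collagen telopeptides, fell by 0.32 on SFA, 0.41 on n6 and 0.79 on n3 (adjusted p = 0.00118, 7.76e-05 and 2.1e-08).

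Single libraries decided some of these calls. On SFA the following were lost: Adamts15, Loxl2, Mmp12 and Mmp27 without WT SFA 1; Adamts6, Loxl2, Mmp17 and Timp3 without WT SFA 2; Adamts15, Mmp12 and Timp3 without WT SFA 3. Without WT SFA 4, Adamts1, Adamts6, Adamts15, Mmp17 and Timp3 were lost, and without KO SFA 1, Adamts15, Mmp17, Mmp28 and Timp3. Without KO SFA 2, Adamts6, Mmp12, Mmp17, Mmp27 and Timp3 were lost. Without KO SFA 3, these were Adamts1, Adamts15, Adamtsl1, Loxl2, Mmp12, Mmp27 and Timp3, and without KO SFA 4, Adamts6, Adamts15, Mmp12, Mmp17 and Timp3. On n6, Loxl2 was lost without any of WT n6 1 to 3 or KO n6 2 to 4, Adamts3 without WT n6 1 or 3 or any of KO n6 1 to 3, Lox without WT n6 4 or KO n6 4, and Adamtsl5 without KO n6 2. On n3, Mmp19 was lost without any single library other than KO n3 4, Adamtsl5 without WT n3 3 or 4 or KO n3 1 or 2, and Adamts6 without WT n3 1 or 4 or KO n3 1 or 3. Without the 4 marker-high libraries, the calls of Adamts6, Adamts7, Adamts15, Mmp12, Mmp17, Mmp27, Timp1 and Timp3 on SFA and of Adamts3 and Adamtsl5 on n6 were lost.

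The genotype effect differed among the 3 diets for 6 of 49 members by the edgeR interaction test, where 6.44% of all genes did. They were Mmp11 (adjusted p = 0.00677), Plod2 (0.0171), Timp3 (0.0194), Mmp9 (0.0381), Adamts2 (0.0438) and Adamts5 (0.0475). Mmp11 passed in all 33 alternatives, with an adjusted p of at most 0.0462, Timp3 in 30, Plod2 in 29, Mmp9 in 15, and Adamts2 and Adamts5 in 10 each. On log2(TPM + 1), Mmp11 and Timp3 stayed past the threshold and the other 4 did not. The count of 6 fell to 3 without any 1 of WT SFA 2, WT SFA 4, WT n6 1, WT n6 2, KO n6 2, WT n3 1 or WT n3 3, fell to 2 without KO n3 1, and rose to 10 without KO SFA 4. Without the 4 marker-high libraries 2 members remained called, Mmp11 and Plod2.

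Mmp11, a stromelysin that is activated inside the cell, had 10.7, 9.64, 10.9 and 13.4 CPM in WT and 19, 19, 18.3 and 19 CPM in KO on n6. On SFA it had 13.3, 11.6, 13.2 and 14.8 CPM in WT and 12.7, 16.6, 16.9 and 14.1 in KO, and on n3 17.7, 13.7, 17.4 and 16.3 in WT and 15.7, 14.9, 13.2 and 17.6 in KO. The groups were apart on n6, where the KO values were the highest of the 24 libraries, and overlapped on SFA and n3. It rose in KO by 0.76 log2 on n6 (adjusted p = 4.93e-06, SE 0.11), with 0.19 on SFA (adjusted p = 0.16) and -0.09 on n3 (adjusted p = 0.557).

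Mmp9, the gelatinase of leukocytes, had 5.84, 4.75, 7.10 and 4.57 CPM in WT and 12, 13, 8.56 and 9.33 CPM in KO on n6. It rose there by 0.94 log2 (adjusted p = 0.000509, SE 0.2), and by 0.69 without the 4 marker-high libraries, where it still passed. On SFA it stood at -0.20 (adjusted p = 0.462) and on n3 at 0.19 (adjusted p = 0.451), with overlapping groups. On n6, 6 of 6 T cell markers and 5 of 6 B cell markers were also higher in KO, with summed levels of 21.3 to 31.3 against 6.5 to 9.44 CPM for T cells and 4.01 to 40.2 against 2.21 to 2.81 CPM for B cells. The summed T cell level was also higher in KO without overlap on SFA (32 to 49 against 15.3 to 19.8 CPM) and n3 (27.8 to 33.7 against 13.7 to 18.2 CPM), where 1 of 6 T cell markers passed the test and Mmp9 did not. The median log2 fold change of the T cell list was 1.23 on n6, -0.30 on SFA and -0.02 on n3. The higher sum on SFA and n3 was therefore not a rise of the list as a whole. The neutrophil list had 2 markers higher and 1 lower of 5 tested on n6, with a summed level of 8.79 to 13.9 CPM in WT and 5.75 to 7.87 CPM in KO, and its defining marker Ly6g had 0 counts in the 24 libraries. The part of these cells in the rise of Mmp9 was not tested.

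Timp3 changed direction with diet in counts. On SFA it had 625, 489, 469 and 486 CPM in WT and 586, 644, 598 and 584 CPM in KO, and on n3 673, 630, 655 and 736 in WT and 476, 515, 527 and 642 in KO. In each case 1 library crossed into the other group, WT SFA 1 and KO n3 4. It rose on SFA by 0.22 log2 (adjusted p = 0.0481, SE 0.088) and fell on n3 by 0.32 (adjusted p = 0.0062, SE 0.088), with 0.13 on n6 (adjusted p = 0.248). The call on SFA held in 4 of 18 alternatives, TPM centred on the median gene among them, and was absent in TPM without centring (0.07). The fall on n3 held in all 18. On n3, 4 of 6 mural cell markers also fell in KO, with a summed level of 858 to 944 CPM in WT and 588 to 854 CPM in KO, and 2 of 6 endothelial markers fell, while on SFA 4 of 6 endothelial markers rose. On n6, where Timp3 was not called, 1 of 6 endothelial markers rose. Their summed level there was 997 to 1160 CPM in WT and 1280 to 1390 CPM in KO. Of the mural markers, 1 rose and 1 fell on SFA and likewise on n6. The part of these cells in the changes of Timp3 was not tested.

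Plod2 had 14.2, 14.7, 15.9 and 11.7 CPM in WT on SFA. The WT libraries on n6 had 15.4, 15.6, 16.1 and 14.2 CPM and those on n3 19.5, 18.4, 18.3 and 20.6 CPM. Its KO values lay within 10.7 to 13 CPM on all diets. The 4 WT libraries on n3 were the highest of the study, and the KO libraries overlapped among the diets.

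**Figure D4:**
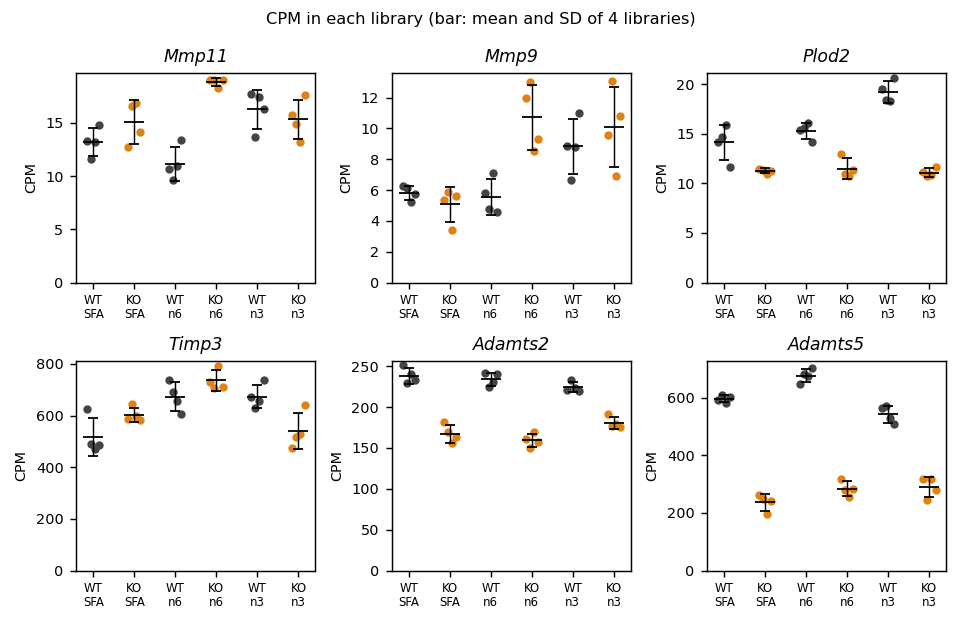
CPM in each library (points; grey WT, orange KO) for the 6 genes whose genotype effect differed among diets, with mean and SD of 4 libraries; each axis starts at 0. Mmp11 and Mmp9 are apart on n6 only, Plod2 in WT is highest on n3, and Timp3 in KO is lowest on n3.

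Between diets, more members were higher than lower on n6 against SFA in both genotypes. In WT, 11 members rose and 1 fell on n6 (11.6% and 13.1% of all genes), with a median log2 fold change of 0.17. Mmp12 rose from 43.9 ± 6.53 to 91.6 ± 19.8 CPM, a log2 fold change of 1.06 (adjusted p = 0.000802, SE 0.2) without overlap. In the same comparison 5 of 8 macrophage markers rose, and their part was not tested. Adamts3 rose from 0.519 ± 0.0372 to 0.915 ± 0.0653 CPM (0.82, adjusted p = 0.00219). Timp3 rose by 0.38 (adjusted p = 0.0034), and its highest SFA library, 625 CPM, passed the lowest n6 library, 607 CPM. The others that rose were Adamts9, Adamts14, Adamts15, Adamtsl2, Loxl4, Mmp17, Plod1 and Timp1, at 0.13 to 0.71 log2. Plod3 was the member that fell (-0.13, adjusted p = 0.0311), and in TPM it stood at 0.04. In TPM centred on the median gene this call was kept.

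WT mice on n3 and on SFA differed in 1 member, Plod2, with 0 lower (0.0852% and 0.059% of all genes). Plod2 was higher on n3 by 0.44 log2 (adjusted p = 0.012, SE 0.072), and this call was lost without WT SFA 2, without WT n3 4 and in TPM (0.39). Without WT SFA 1 the count was 2. By unadjusted p under 0.05 edgeR had 10 members higher and 0 lower, and DESeq2 called 2 higher and 0 lower. Neither split is set beside that of all genes. Against n6, which enters the comparison above as well, 6 members were higher and 7 lower on n3 in WT (9.82% and 8.61% of all genes). In TPM this split was 1 higher and 17 lower (3.77% and 21.9% of all genes). Adamtsl2 fell from 11.7 ± 2.05 to 6.29 ± 0.53 CPM (-0.90, adjusted p = 0.000703) and Mmp11 rose from 11.2 ± 1.57 to 16.3 ± 1.83 CPM (0.55, adjusted p = 0.000983). Plod2 rose by 0.32 (adjusted p = 0.00275), but stood at 0.10 in TPM, short of the threshold. Without WT n6 2 the counts were 4 higher and 3 lower.

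In KO, 9 members rose and 0 fell on n6 against SFA (8.92% and 13.8% of all genes), with a median log2 fold change of 0.21. By unadjusted p under 0.05 edgeR had 21 higher and 0 lower, and DESeq2 called 13 higher and 0 lower. Shares of all genes for these 2 splits are not given, so they say nothing about the members in particular. With TPM centred on the median gene the split was 5 higher and 3 lower (4.09% and 15.4% of all genes). Adamts15 rose from 14.3 ± 0.954 to 21.4 ± 1.9 CPM (0.58, SE 0.098, adjusted p = 0.000334) and Mmp9 from 5.07 ± 1.14 to 10.7 ± 2.1 CPM (1.08, SE 0.2, adjusted p = 0.000886), both without overlap. Adamtsl2 rose by 0.66 (adjusted p = 0.0199) with overlapping groups. These 3 were the members left when the 4 marker-high libraries were taken out. Without KO SFA 1, KO SFA 3 or KO n6 1 the count was 5, 4 and 4, and without KO SFA 2 it was 15.

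On n3 against SFA in KO, 4 members rose and 0 fell (0.826% and 0.636% of all genes): Mmp23 (0.39, adjusted p = 0.00786), Mmp9 (0.99, adjusted p = 0.0123), Mmp3 (0.50, adjusted p = 0.0214) and Loxl1 (0.42, adjusted p = 0.0364). Mmp3 went from 46.4 ± 6.13 to 65.8 ± 4.44 CPM. By unadjusted p under 0.05 edgeR had 17 members higher and 2 lower, and DESeq2 called 9 higher and 0 lower. These splits too are given without the shares of all genes. All 4 calls were lost with only the groups compared, and those of Mmp9 and Loxl1 in TPM. In TPM centred on the median gene all 4 were kept. The count was 1 without KO SFA 3, where Mmp9, Mmp3 and Loxl1 were lost. It was 2 without KO n3 1, where Mmp3 and Loxl1 were lost, and 7 without KO SFA 4. On n3 against n6 in KO, 2 members rose and 8 fell (15.8% and 10.3% of all genes), or 0 and 12 in TPM (2.13% and 20.3%) and 4 and 3 in TPM centred on the median gene (16% and 5.58%). Timp3 fell from 736 ± 39.5 to 540 ± 71.2 CPM (-0.45, adjusted p = 0.00191), Mmp17 by 0.66 (adjusted p = 0.00485) and Adamts15 by 0.39 (adjusted p = 0.00666). In the same comparison 5 of 6 endothelial, 4 of 6 mural and 3 of 6 skeletal muscle markers fell. Summed levels were 1280 to 1390 CPM on n6 and 788 to 1150 CPM on n3 for endothelial markers, 844 to 943 and 588 to 854 CPM for mural ones, and 14.6 to 272 and 18.5 to 24.6 CPM for muscle ones. The part of these markers in the falls was not tested. Adamts2 and Plod3 were the members that rose, at 0.18 and 0.14, and in TPM they stood at 0.04 and -0.05, without a call. In TPM centred on the median gene Adamts2 kept its call and Plod3 did not. Without the 4 marker-high libraries 7 of the 10 calls were lost, those of Adamts2, Adamts4, Adamts9, Adamtsl3, Mmp11, Mmp25 and Plod3, so that neither rise remained. Without KO n3 3 the count was 5. These diet comparisons share groups within a genotype and are not independent of each other.

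**Figure D5:**
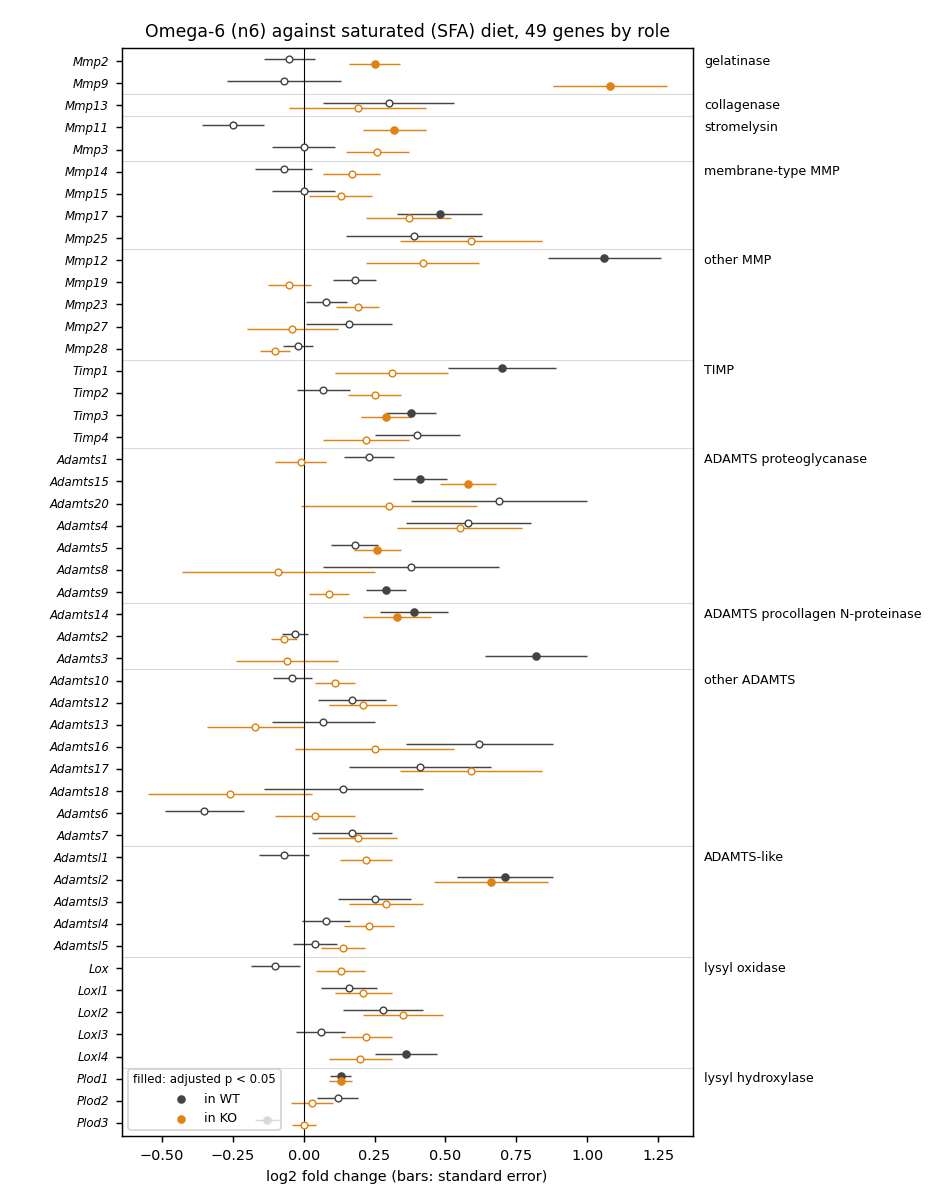
Log2 fold change of n6 against SFA for 49 genes (rows, by role) in WT (grey) and KO (orange), with standard errors; filled points passed the adjusted p threshold of 0.05. Most points lie right of 0; Mmp12 in WT and Mmp9 in KO are farthest to the right among the filled ones.

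Other proteases and their partners were counted in lists by function, which were also chosen with earlier results of these data known. They are to be read against the 19.9%, 22.1% and 18.7% of all genes that fell on SFA, n6 and n3. On the same diets 20%, 21% and 20.1% of all genes rose. Of the plasminogen system, which activates several metalloproteinases, 5, 3 and 3 of 8 tested genes fell and 2, 2 and 1 rose on SFA, n6 and n3. Serpine2, a serine protease inhibitor, fell by 0.93, 1.04 and 0.64 log2, and the urokinase receptor Plaur by 0.34, 0.80 and 0.52. Of the cysteine cathepsins and cystatins, 6, 6 and 4 of 10 fell and 1, 0 and 1 rose. Ctss, a cathepsin of antigen-presenting cells, fell by 0.63, 0.97 and 0.66, alongside the macrophage markers. Of ADAM and other matrix proteases, 9, 9 and 6 of 15 fell and 1, 2 and 1 rose. Adam12, a secreted or membrane-bound metalloproteinase, rose from 178 ± 24.2 to 359 ± 13.5 CPM on SFA, and by 1.01, 1.23 and 0.86 log2 on the 3 diets, against the direction of the majority of calls in its list.

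Among regulators of these enzymes, 5, 4 and 4 of 9 fell and 1, 1 and 0 rose. Lrp1, the receptor that clears metalloproteinases from the surroundings of the cell, fell by 0.62, 0.55 and 0.47 log2. Papln, a relative of the ADAMTS-like proteins, rose on SFA (0.86) and n6 (0.48, with 0.22 and no call in TPM), and stood at 0.29 on n3 (adjusted p = 0.086). Of 21 genes of procollagen processing and hydroxylation, 13, 13 and 11 fell and 0, 0 and 1 rose. Pcolce2, an enhancer of procollagen processing, fell by 1.00, 0.75 and 0.68, and P3h1, a prolyl hydroxylase, by 0.57, 0.65 and 0.34.

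Of the matrix proteins on which the enzymes act, 21, 23 and 14 of 28 were lower and 1, 2 and 1 higher. Comp, which Adamts7 cleaves, fell by 1.58, 1.17 and 1.72 log2, and the basement membrane proteoglycan Hspg2 by 0.74, 0.64 and 0.67. Of 15 microfibril and elastic fibre genes, 8, 7 and 4 fell and 1, 2 and 1 rose. Efemp1, a fibulin, fell from 142 ± 9.18 to 60.7 ± 6.21 CPM on SFA (-1.22) and by 1.26 and 0.75 on n6 and n3, whereas Ltbp2, which binds microfibrils, rose by 0.76, 0.66 and 0.58, the last without a call in TPM (0.27).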

How the data were processed

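Bulk RNA-seq of iWAT from 24 libraries was analysed from 2 deposited tables. The deposited expected counts per gene came from Salmon after trimming with fastp 0.23.2, against mm10, per the submitters' processing notes; the Salmon version, options and annotation were not given in the sources used. The deposited TPM table was scaled by the authors to an equal sum per library. Estimated counts need not be whole and were rounded here. Reads shared between similar genes are split by estimation, so low paralogs are uncertain, and whether the counting used strand is not given. The 2 tables were joined for 34875 genes, all 49 members included.

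The filterByExpr function, with a minimum count of 10 and a minimum total of 15, left 15259 genes to test. Differences were tested with edgeR 4.0.16 in R 4.3.3 (quasi-likelihood F test, TMM, 1 coefficient per group over 24 libraries, robust, 18 residual degrees of freedom), with Benjamini-Hochberg adjustment over all 15259 genes. CPM use TMM-scaled library sizes. The interaction is an F test that the genotype effect is equal on the 3 diets. The pipeline was tested on simulated data. TPM were tested with limma 3.58.1 on log2(TPM + 1), where fold changes of low genes are understated.

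The members and the lists of markers and partners were chosen with earlier results of these data known. Text on single members follows a rule, the 6 smallest p in each genotype comparison, 4 in the interaction and 3 in each diet comparison, with up to 3 genes per partner list; other members are named to account for all 49. Alternatives were RLE scaling, no count filter (23565 genes), DESeq2 1.42.0, only the groups compared, a replicate block, limma on TPM with pseudocounts of 1 and 0.1 and without a filter (23261 genes), and leaving out each library. Those added after seeing the data were leaving out the 4 libraries with a mean log2 CPM above 2 over B cell markers or above 4 over muscle markers, and centring TPM on the median gene. Promoter windows are from RefSeq (GRCm38.p6), and gene positions from GENCODE M21. Replicate numbers did not pair libraries: correlations of their deviations ranged from -0.144 to 0.257, and in no comparison were all pairs above 0.1.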

Additional observations from a re-analysis of the deposited data

Results flagged for a closer look

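Members named by the rule were checked for a library standing far from the rest of its group of 4, in 102 groups, of which chance flags about 1 in 20. Adamts10 had such a library in WT on n6 (replicate 4, 59.4 CPM against 45.5 to 46.5 CPM) and in KO on n3 (replicate 4, 41.8 CPM against 36.1 to 36.8 CPM). Adamtsl4 had one in WT on n3 (replicate 2, 34.1 CPM against 31.4 to 31.8 CPM). Mmp17 had one in WT on n3 (replicate 3, 2.23 CPM against 1.69 to 1.75 CPM). Timp3 had one in WT on SFA (replicate 1, 625 CPM against 469 to 489 CPM). In KO on n6 the lowest library of Mmp11, at 18.3 CPM, stood apart from 3 libraries that were all at 19 CPM.

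The genotype effect differed among the diets, by the edgeR interaction test, for Mmp11 (adjusted p = 0.00677), Plod2 (0.0171), Timp3 (0.0194), Mmp9 (0.0381), Adamts2 (0.0438) and Adamts5 (0.0475). The log2 fold changes of KO against WT on SFA, n6 and n3 were 0.19, 0.76 and -0.09 for Mmp11, -0.32, -0.41 and -0.79 for Plod2, 0.22, 0.13 and -0.32 for Timp3, and -0.20, 0.94 and 0.19 for Mmp9. For Adamts2 they were -0.51, -0.55 and -0.31 and for Adamts5 -1.33, -1.25 and -0.90, so that both fell on each diet.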

How the results depend on the processing

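The counts of members called for KO against WT (32 on SFA, 25 on n6 and 21 on n3) moved by less than 1.5 times under every alternative run, and ranged over 25 to 32, 22 to 27 and 18 to 24 when a library was left out. Without the 4 marker-high libraries they were 27, 24 and 21. In TPM with a pseudocount of 1 they were 28, 32 and 29. Of these, 27, 23 and 18 were also called in counts in the same direction, so the members called changed more than their number. The interaction count of 6 was 3 without a count filter, 10 in DESeq2, 3 in TPM with either pseudocount, 2 in TPM with no filter or median centred, 2 without the 4 libraries, and 2 to 10 when a library was left out. For n6 against SFA in WT the count of 12 became 24, 24 and 23 in TPM (pseudocount 1, pseudocount 0.1, no filter). It was 10 in TPM centred on the median gene, and 8 to 14 when a library was left out. For n3 against SFA in WT the count of 1 was 2 in DESeq2, 0 with only the groups compared, 0 in each TPM fit, and 0 to 2 when a library was left out. For n3 against n6 in WT, the count of 13 ranged over 7 to 13 when a library was left out. In KO, n6 against SFA (9) gave 5 with only the groups compared and 20, 19 and 16 in TPM. It gave 8 in TPM centred on the median gene, 3 without the 4 libraries, and 4 to 15 when a library was left out. For n3 against SFA in KO (4), the counts were 2 with no count filter, 9 in DESeq2, 0 with only the groups compared, 2, 2 and 0 in TPM, and 1 to 7 when a library was left out. For n3 against n6 in KO (10), they were 6 with no count filter, 6 with only the groups compared, 5 without the 4 libraries, and 5 to 13 when a library was left out. The cause of these shifts was not tested, beyond the smaller number of libraries where some were left out. Shares of all genes called are not set beside these counts, so the shifts are not shown to be particular to the members. In the fit with a replicate block the counts were 32, 25 and 21 for genotype, 7 for the interaction, 13, 1 and 13 for the diets in WT and 9, 4 and 8 in KO, and the numbers did not pair the libraries. No call of a member chosen by the naming rule changed sign; Mmp19 on n3 and Plod3 between diets, outside it, did so in TPM. Members below about 1 CPM, such as Adamts18, rest on few counts.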
